A study of Mus musculus with 9 samples.

Results

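The oxygen-dependent demethylases and hydroxylases of HT22 cells were described across untreated cells, cells deprived of oxygen and glucose, and deprived cells given extracellular vesicles. The members were the protein-coding genes of the deposited table whose symbols belong to the Kdm families from Kdm2 to Kdm8, the Tet, Plod, P3h, Alkbh, Ogfod, Jmjd and Riox families, with Fto, Phf2, Phf8 and Jarid2. Kdm5d was left out. This name rule used no measured value and gave 47 of the 54532 gene IDs, of which 43 were among the 13245 genes that reached a mean of 0.5 FPKM (fragments per kilobase of gene, scaled to library depth) over the 9 libraries. Jmjd7, Kdm4d, P3h3 and Tet1 did not reach that level and were not tested.

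Most of these genes encode enzymes that use molecular oxygen, iron and 2-oxoglutarate to add a hydroxyl group to a substrate. On a methyl group carried by nitrogen, the hydroxylated product falls apart and the methyl group is lost, which is how JmjC histone demethylases and several AlkB proteins work. The Tet enzymes instead oxidize the methyl group of 5-methylcytosine in DNA, and the Plod and P3h enzymes hydroxylate lysines and prolines of procollagen in the endoplasmic reticulum. Members differ in their affinity for oxygen, and some, such as Kdm3a, Kdm4b, Kdm4c, Kdm6b, Plod1 and Plod2, are known to be transcribed more under hypoxia, several of them through the hypoxia-inducible factor HIF-1.

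HT22 is an immortalized, wild-type line derived from mouse hippocampal neurons. The control libraries came from 3 samples of untreated cells. OGP denotes 3 samples that went through 2 h of oxygen-glucose deprivation (OGD) and then 24 h of reoxygenation with PBS, the vehicle, and OGE denotes 3 samples that went through the same deprivation and were given hiPS-MSC-EVs, vesicles secreted by mesenchymal stem cells that had been made from human induced pluripotent stem cells. RNA was thus taken a day after oxygen was returned, and no sample was taken during deprivation. A vesicle dose is given for deprived HT22 cells in general, but not for the sequenced samples in particular, and the sources differ on whether serum was in the medium after deprivation, so vesicles and serum cannot be told apart here. The samples of a group are called biological replicates, without a statement that they were separate cultures, and p-values measure only the spread between these samples.

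The 9 libraries held 15026700 to 19476806 reads in genes, and Pearson's r of log2 values was 0.969 to 0.988 within groups and 0.949 to 0.970 between them. Control replicate 1 stood apart on the third principal component, at 33.1 against -15.0 and -11.0 for the other controls, as did OGE replicate 3 (-19.4). Of 8 neuron markers only Map2, Tubb3 and Dlg4 reached 0.5 FPKM in any library, and Rbfox3, Snap25, Syp, Nefl and Nefm did not, whereas 10 of 10 proliferation markers and 4 of 5 mesenchymal markers did. Mitochondrial transcripts took 1.10% to 2.31% of reads in control, 2.45% to 3.25% in OGP and 2.03% to 2.90% in OGE. Among protein-coding genes tested, long genes (over 8000 bases, 1964 genes) and short genes (under 2000 bases, 1499 genes) shifted against each other. The median log2 deviation of long genes minus that of short genes was 0.31, -0.19 and -0.02 in control replicates 1 to 3, -0.13, -0.23 and -0.31 in OGP, and 0.17, 0.24 and 0.11 in OGE. Members were longer than most genes (median 5846 bases against 3783 over all genes tested), so this shift is given beside the results it touches.

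The promoters of 6 members are shown. They were drawn from the members called in any comparison or listed as induced by hypoxia. Shown are all of these whose RefSeq start lay within 100 bases of the 5′ end of the gene in the deposited table. The stretch thus belongs to the gene as it was counted. Kdm5b, Kdm7a and Plod3 were called lower in OGP. Kdm3a, Kdm4c and Plod1 come from a chosen list of members known to be induced by hypoxia and were not called. Each stretch runs 5′ to 3′ on the strand of the gene, from 250 bases before to 50 bases after that start, on GRCm38.p6 (mm10). On the plus strand lie Kdm5b at chr1:134559928-134560227, Plod3 at chr5:136986769-136987068 and Kdm4c at chr4:74242247-74242546. On the minus strand lie Kdm7a at chr6:39206724-39207023, Kdm3a at chr6:71632868-71633167 and Plod1 at chr4:147936727-147937026. Capitals mark the core letters bound by HIF, ACGTG or GCGTG, on either strand.
Kdm5b: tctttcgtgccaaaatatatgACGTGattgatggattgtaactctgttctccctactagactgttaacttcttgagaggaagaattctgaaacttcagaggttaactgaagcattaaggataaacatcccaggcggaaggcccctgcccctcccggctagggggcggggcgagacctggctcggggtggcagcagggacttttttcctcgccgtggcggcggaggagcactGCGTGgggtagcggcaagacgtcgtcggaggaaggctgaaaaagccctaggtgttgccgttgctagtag
Kdm7a: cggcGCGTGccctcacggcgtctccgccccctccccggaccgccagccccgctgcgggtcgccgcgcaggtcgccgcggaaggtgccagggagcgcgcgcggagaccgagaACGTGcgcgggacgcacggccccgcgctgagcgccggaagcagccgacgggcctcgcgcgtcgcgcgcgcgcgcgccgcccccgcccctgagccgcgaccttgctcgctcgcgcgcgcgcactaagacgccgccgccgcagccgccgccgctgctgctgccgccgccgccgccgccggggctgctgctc
Plod3: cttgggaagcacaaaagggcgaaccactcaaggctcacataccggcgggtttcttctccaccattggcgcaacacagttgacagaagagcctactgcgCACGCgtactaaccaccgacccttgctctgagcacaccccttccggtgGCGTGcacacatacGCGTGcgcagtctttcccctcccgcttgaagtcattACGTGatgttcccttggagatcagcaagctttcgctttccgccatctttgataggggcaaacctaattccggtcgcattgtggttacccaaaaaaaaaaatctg
Kdm3a: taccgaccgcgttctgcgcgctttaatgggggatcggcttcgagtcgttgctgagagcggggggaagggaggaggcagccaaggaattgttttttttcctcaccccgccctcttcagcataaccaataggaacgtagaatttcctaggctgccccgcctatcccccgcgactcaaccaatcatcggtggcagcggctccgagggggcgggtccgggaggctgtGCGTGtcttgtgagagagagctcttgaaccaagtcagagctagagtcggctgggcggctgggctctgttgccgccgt
Kdm4c: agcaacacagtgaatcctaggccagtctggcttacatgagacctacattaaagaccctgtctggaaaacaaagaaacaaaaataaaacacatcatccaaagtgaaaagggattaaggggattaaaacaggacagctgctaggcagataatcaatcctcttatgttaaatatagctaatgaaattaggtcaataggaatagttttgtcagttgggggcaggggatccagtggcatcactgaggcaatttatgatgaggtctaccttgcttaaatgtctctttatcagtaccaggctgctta
Plod1: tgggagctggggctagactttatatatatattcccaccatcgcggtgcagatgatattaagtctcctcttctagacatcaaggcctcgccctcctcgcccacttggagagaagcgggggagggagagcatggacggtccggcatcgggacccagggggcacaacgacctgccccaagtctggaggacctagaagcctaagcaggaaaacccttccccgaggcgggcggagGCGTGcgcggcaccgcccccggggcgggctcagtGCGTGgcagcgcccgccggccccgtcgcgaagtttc
The Plod3 stretch held 4 such cores, those of Kdm5b, Kdm7a and Plod1 held 2 each, that of Kdm3a held 1 and that of Kdm4c held 0. Of the 47 members, 38 had a promoter in the RefSeq table, and 23 of these (60.5%) held ACGTG or GCGTG, against 43.8% of all 27025 promoters of the same length and 65.5% of those of 8703 protein-coding genes tested. The median GC content was 60.2% in the members' promoters and 61.3% in those of protein-coding genes tested. The cores were thus about as frequent in members as in other expressed genes. A match of letters is a description and not a binding site.

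**Figure D1:**
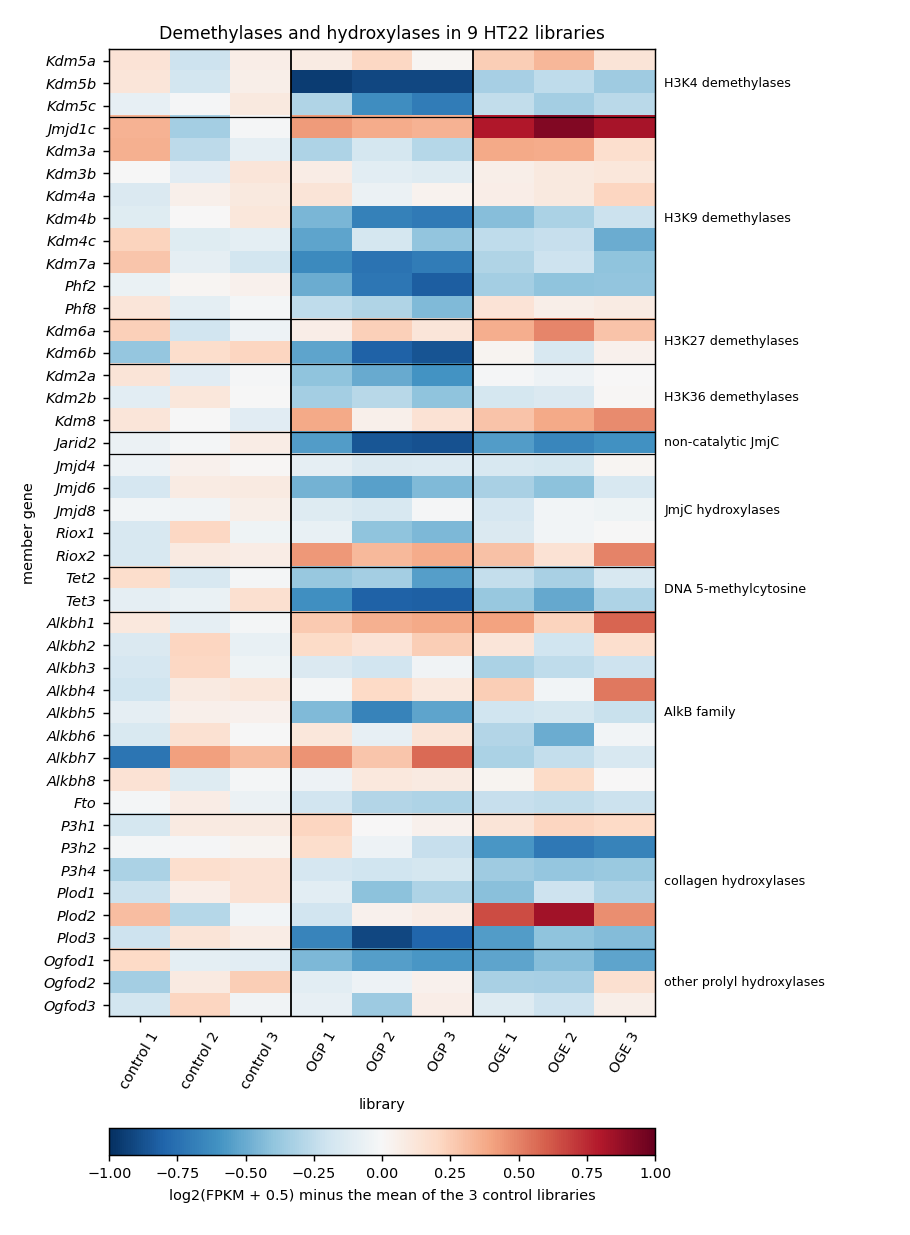
Each row is 1 of the 43 members tested, grouped by substrate, and each column is 1 of the 9 libraries. Colour gives log2(FPKM + 0.5) minus the mean of the 3 control libraries, blue for lower and red for higher. Kdm5b, Jarid2, Tet3 and Plod3 are blue in the 3 OGP libraries, and Jmjd1c and Plod2 are red in the 3 OGE libraries.

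The members were transcribed at low to moderate levels, with a mean over the 9 libraries of 0.894 to 39.4 FPKM and a median of 5.20 FPKM. Plod2, P3h4, Alkbh5 and Plod3 were the members highest in FPKM, and Kdm7a was the lowest among those tested. The lowest read number of a tested member in a library was 67, and the median of these lowest numbers over members was 430, so counting error was small for most members. FPKM is per gene length and was used for these comparisons between genes.

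OGP was first compared with control. The control cells were untreated, so deprivation, the medium used with it and PBS cannot be told apart in this comparison. No member was higher and 8 of 43 (18.6%) were lower, and they came from several substrate classes. They were the H3K4 demethylase Kdm5b, the H3K9 demethylases Kdm4b, Kdm7a and Phf2, the H3K27 demethylase Kdm6b, the Polycomb partner Jarid2, the 5-methylcytosine oxidase Tet3 and the collagen lysyl hydroxylase Plod3. Calls rested on limma, with 0.05 as the upper limit of the adjusted p and 1.5 as the lower limit of the fold, on log2(FPKM + 0.5), a scale that understates the change of low genes. Over all 13245 genes tested, 5.74% were called lower and 6.38% were called higher. The count of 0 higher members came from limma with a trended variance, and 3 members were higher at an unadjusted p under 0.05. With limma's voom on recovered reads 0 were called higher and 9 lower, against 7.93% and 6.71% of all genes. By the adjusted p alone, 17 members were lower (39.5%) against 16.0% of all genes, and 2 were higher, Alkbh1 and Riox2, against 13.8%. The 3 OGP libraries lay below the 3 control libraries in 19 members (44.2%) against 22.6% of all genes, and above them in 2 members against 20.3%. The median log2 fold change was -0.18 over the 43 members and 0.0063 over all genes tested, and 69.8% of members were below 0 against 49.3% of all genes. With the length shift removed the members' median was -0.17. In these bulk libraries, fewer cells expressing a gene and less RNA per cell cannot be told apart.

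Kdm5b removes methyl groups from lysine 4 of histone H3 at promoters. Its level was 4.01, 3.15 and 3.82 FPKM in the control libraries, 1.64, 1.71 and 1.71 FPKM in OGP and 2.80, 2.97 and 2.74 FPKM in OGE. The 3 groups did not overlap, with OGE between the other groups. In OGP against control the log2 fold change was -0.92 (SE 0.10, limma adjusted p = 0.000265). Its paralogs Kdm5a and Kdm5c lay at higher levels, 6.23 to 9.27 FPKM and 11.8 to 20.8 FPKM. Kdm5c passed the adjusted p in OGP against control at a smaller fold, with a log2 fold change of -0.54 (SE 0.11, limma adjusted p = 0.00554), whereas the Kdm5a groups overlapped.

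Kdm6b, also called Jmjd3, removes methyl groups from lysine 27 of histone H3, the mark set by Polycomb complexes. It stood at 3.84, 5.88 and 6.06 FPKM in control, 3.43, 2.74 and 2.61 FPKM in OGP and 5.26, 4.56 and 5.32 FPKM in OGE. Every OGP library lay below every library of the other groups, which overlapped each other. Control replicate 1 was the lowest of its group, close to OGP replicate 1. OGP differed from control by a log2 fold change of -0.73 (SE 0.16, limma adjusted p = 0.00999). The X-linked Kdm6a, which has the same substrate, ran from 3.89 to 6.51 FPKM and was not called in any comparison.

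Among the H3K9 demethylases, 3 of the 9 members tested were lower in OGP. Phf2, which also acts as a coactivator, stood at 10.7, 11.4 and 11.6 FPKM in control, 7.82, 6.61 and 6.12 FPKM in OGP and 8.73, 8.37 and 8.40 FPKM in OGE. Kdm4b, which removes trimethylation and is known to be induced by hypoxia, stood at 8.31, 9.11 and 9.86 FPKM in control, 6.46, 5.50 and 5.37 FPKM in OGP and 6.63, 7.19 and 7.73 FPKM in OGE. In both genes the groups did not overlap and OGE lay in between. Against control, the log2 fold change in OGP was -0.68 for Phf2 (SE 0.09, limma adjusted p = 0.000844) and -0.61 for Kdm4b (SE 0.10, limma adjusted p = 0.00214). The Kdm4b call was near the fold threshold and was lost without control replicate 3 (-0.56), OGP replicate 2 (-0.58) or OGP replicate 3 (-0.57), as well as with the length shift removed (-0.56), quantile normalization (-0.57) or a pseudocount of 1 FPKM (-0.58).

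Kdm7a, a plant homeodomain demethylase of H3K9 and H3K27, was the lowest member tested. Its level was 1.58, 1.11 and 1.01 FPKM in control, 0.603, 0.528 and 0.556 FPKM in OGP and 0.892, 0.981 and 0.795 FPKM in OGE. Control replicate 1 was the highest, and the OGP libraries lay below all others. Its log2 fold change in OGP against control was -0.69 (SE 0.15, limma adjusted p = 0.00937), and the call was lost without control replicate 1 (-0.55) and with a pseudocount of 1 FPKM (-0.51). Over 22 alternatives its value ran from -1.08 to -0.51, so the size of this change depended on the scale. An antisense gene, 4930599N23Rik, overlaps Kdm7a, with means of 0.860, 1.48 and 0.813 FPKM in control, OGP and OGE. Counting is not stated to have used strand, so reads of the overlap cannot be assigned to either gene.

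Jarid2 has a JmjC domain without demethylase activity and is known for recruiting the Polycomb complex that methylates H3K27. It stood at 1.74, 1.80 and 1.96 FPKM in control, 1.09, 0.785 and 0.778 FPKM in OGP and 1.08, 0.985 and 1.03 FPKM in OGE. OGP and OGE overlapped, and both lay below control. Jarid2 had a log2 fold change of -0.76 in OGP against control (SE 0.13, limma adjusted p = 0.00231) and of -0.61 in OGE against control (SE 0.13, limma adjusted p = 0.00749). The second of these calls was lost without control replicate 3 (-0.57) or OGE replicate 2 (-0.58) and with a pseudocount of 1 FPKM (-0.48).

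Tet3, a Tet enzyme that is abundant in brain, stood at 5.77, 5.88 and 6.94 FPKM in control, 3.86, 3.31 and 3.28 FPKM in OGP and 4.64, 4.18 and 4.90 FPKM in OGE. The 3 groups did not overlap, and OGE lay between the other groups. Tet3 had a log2 fold change of -0.75 in OGP against control (SE 0.10, limma adjusted p = 0.000894). Tet2 passed the adjusted p at a smaller fold, with a log2 fold change of -0.42 in OGP against control (SE 0.13, limma adjusted p = 0.0375). Tet1, under the level tested, was at 0.471, 0.458 and 0.404 FPKM in control, 0.186, 0.229 and 0.163 FPKM in OGP and 0.243, 0.252 and 0.242 FPKM in OGE. No Tet gene had an OGP library that reached its control range.

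Plod3 hydroxylates collagen lysines and can also glycosylate them. It stood at 26.9, 34.1 and 32.8 FPKM in control, 19.5, 16.3 and 17.8 FPKM in OGP and 21.0, 23.4 and 22.9 FPKM in OGE. The 3 groups did not overlap, with OGE in between. For Plod3 the log2 fold change in OGP against control was -0.79 (SE 0.11, limma adjusted p = 0.000852). Plod3 shares 1003 bases with Znhit1 on the other strand, which had means of 23.8, 26.7 and 23.4 FPKM in control, OGP and OGE.

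**Figure D2:**
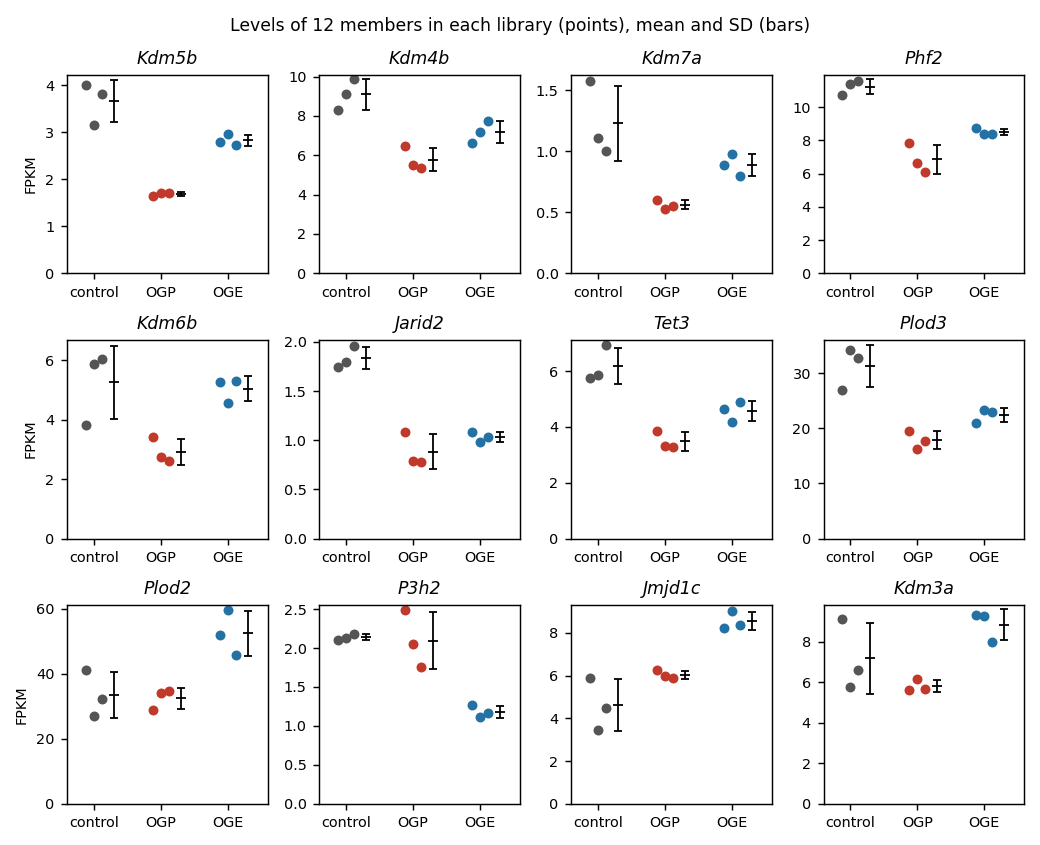
Each panel shows 1 member, the 11 called in any comparison and Kdm3a, with FPKM from 0 on the vertical axis, 3 points per group for the libraries, and a bar for the mean and SD of the group. The OGP points of Kdm5b (1.64 to 1.71 FPKM) lie below its control and OGE points, and the OGE points of Plod2 (45.7 to 59.5 FPKM) lie above all others.

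Several members passed the adjusted p in OGP against control without reaching the fold. The m6A demethylase Alkbh5 stood at 31.8 to 35.0 FPKM in control and 21.2 to 24.8 FPKM in OGP, with a log2 fold change of -0.55 (SE 0.08, limma adjusted p = 0.00115). The other m6A demethylase, Fto, had a log2 fold change of -0.26 (SE 0.07, limma adjusted p = 0.0213). The ribosomal prolyl hydroxylase Ogfod1, which acts on the small-subunit protein uS12, ran from 8.95 to 11.2 FPKM in control, 6.29 to 6.93 FPKM in OGP and 6.54 to 7.06 FPKM in OGE. Its log2 fold change was -0.53 in OGP against control (limma adjusted p = 0.00379) and -0.49 in OGE against control (limma adjusted p = 0.00565). The H3K36 demethylases Kdm2a (-0.50, limma adjusted p = 0.00253) and Kdm2b (-0.34, limma adjusted p = 0.0251), the lysyl hydroxylase Jmjd6 (-0.49, limma adjusted p = 0.00572) and the H3K9 demethylase Phf8 (-0.33, limma adjusted p = 0.0230) had log2 fold changes in the same direction. Riox2, a ribosomal histidine hydroxylase, had a log2 fold change of 0.37 (limma adjusted p = 0.0351), and Alkbh1, a demethylase of tRNA and DNA, one of 0.33 (limma adjusted p = 0.0459).

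OGE was then compared with OGP, that is, deprived cells with and without vesicles, in which vesicles and serum cannot be told apart. Kdm6b, Plod2 and Kdm5b were higher in OGE and P3h2 was lower. The 3 higher members made 6.98% of those tested, against 3.39% of all genes, and the 1 lower member made 2.33% against 4.73%. By the adjusted p alone 9 members were higher (20.9%, against 10.6% of all genes) and 1 was lower (against 10.2%). The 3 OGE libraries lay above the 3 OGP libraries in 17 members (39.5%) against 23.3% of all genes, and below in 4 members (9.30%), Alkbh3, Alkbh7, P3h2 and P3h4, against 22.0%. The median log2 fold change was 0.15 over the members and 0.0039 over all genes tested, and 0.09 over the members with the length shift removed. Both comparisons use the OGP libraries, so a low value in OGP enters each of them with opposite sign.

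Kdm6b had a log2 fold change of 0.70 in OGE against OGP (SE 0.16, limma adjusted p = 0.0171) and of -0.032 in OGE against control (SE 0.16, limma adjusted p = 0.912). The interval of 2 SE around the latter ran from -0.36 to 0.30. The increase over OGP was no longer called without OGP replicate 2 (0.66), OGP replicate 3 (0.63), OGE replicate 1 (0.67) or OGE replicate 3 (0.66), where the adjusted p rose above 0.05. Kdm5b rose by a log2 fold change of 0.61 over OGP (SE 0.10, limma adjusted p = 0.00310) and was -0.31 against control (limma adjusted p = 0.0476). Its increase was not called without OGE replicate 2 (0.58) with the length shift removed (0.41) or with a pseudocount of 1 FPKM (0.51).

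Plod2 hydroxylates lysines in collagen telopeptides, on which stable cross-links depend, and is a classic hypoxia-induced gene. It stood at 41.0, 27.01 and 32.3 FPKM in control, 28.8, 34.0 and 34.7 FPKM in OGP and 52.0, 59.5 and 45.7 FPKM in OGE. The OGE libraries lay above all others, while OGP and control overlapped. Its log2 fold change was 0.68 against OGP (SE 0.16, limma adjusted p = 0.0158) and 0.65 against control (SE 0.16, limma adjusted p = 0.0148). The first was not called without OGE replicate 1 (0.68) or OGE replicate 2 (0.58), and the second not without control replicate 2 (0.51) or OGE replicate 2 (0.56). In OGP against control the value was -0.025 (SE 0.16, limma adjusted p = 0.923).

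P3h2, a collagen prolyl 3-hydroxylase that is prominent on basement membrane collagen, moved the other way. It stood at 2.11, 2.12 and 2.18 FPKM in control, 2.48, 2.05 and 1.75 FPKM in OGP and 1.27, 1.11 and 1.16 FPKM in OGE. The OGE libraries lay below all others, with 67 reads in the lowest. Its log2 fold change was -0.62 against OGP (SE 0.12, limma adjusted p = 0.00727) and -0.65 against control (SE 0.12, limma adjusted p = 0.00424). The first call was lost without OGP replicate 1 (-0.51), and with a pseudocount of 1 FPKM both calls were lost (-0.50 and -0.53). The antisense gene Gm4524 overlaps P3h2 and had means of 0.633, 1.23 and 0.454 FPKM in control, OGP and OGE.

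Kdm3a, an H3K9 demethylase and a known HIF-1 target, stood at 9.15, 5.79 and 6.61 FPKM in control, 5.61, 6.17 and 5.69 FPKM in OGP and 9.32, 9.28 and 7.98 FPKM in OGE. Every OGE library lay above every OGP library, and control spanned both groups, with control replicate 1 as high as OGE. The log2 fold change was 0.56 in OGE against OGP (SE 0.15, limma adjusted p = 0.0253), under the fold of 1.5. It was -0.26 in OGP against control (SE 0.15, limma adjusted p = 0.214) and 0.31 in OGE against control (limma adjusted p = 0.164). Kdm2a (0.48, limma adjusted p = 0.00432), Phf8 (0.42, limma adjusted p = 0.0112), Tet3 (0.35, limma adjusted p = 0.0404), Alkbh5 (0.35, limma adjusted p = 0.0142) and Phf2 (0.30, limma adjusted p = 0.0472) also passed the adjusted p at a smaller log2 fold change in OGE against OGP.

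**Figure D3:**
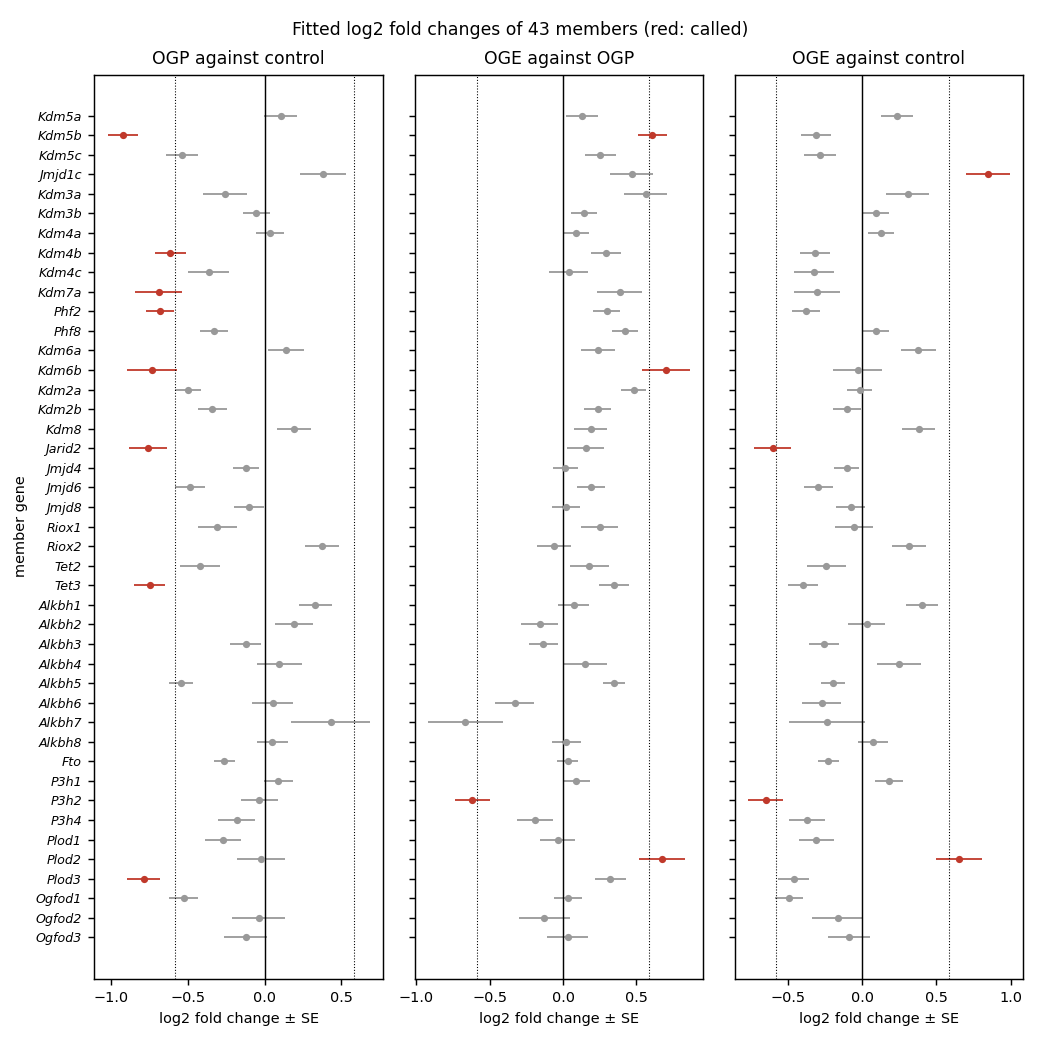
The log2 fold change of each of the 43 members tested with its SE is shown for 3 comparisons, with members called in red and dotted lines at a fold of 1.5 in either direction. On the left 8 members are red and lie below 0, in the middle 3 lie above and 1 below 0, and on the right 2 lie on each side.

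OGE was last compared with control, and 2 members were higher, Jmjd1c and Plod2, and 2 were lower, P3h2 and Jarid2. Each pair made 4.65% of the members, against 5.14% of all genes called higher and 6.33% called lower, so these shares were near the background. By the adjusted p alone 5 members were higher (11.6%, against 11.7% of all genes) and 10 were lower (23.3%, against 13.1%). The OGE libraries lay above control in 7 members (16.3%) against 18.6% of all genes, and below in 16 members (37.2%) against 19.6%. The median log2 fold change was -0.10 over the members and -0.0034 over all genes tested.

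Jmjd1c, a Kdm3-family protein that has been linked to H3K9 demethylation and to the DNA damage response, had the largest positive log2 fold change of the members in this comparison. It stood at 5.91, 3.48 and 4.47 FPKM in control, 6.24, 5.98 and 5.88 FPKM in OGP and 8.23, 9.03 and 8.38 FPKM in OGE. Every OGE library lay above every library of the other groups, and OGP overlapped control through control replicate 1. The log2 fold change in OGE against control was 0.85 (SE 0.15, limma adjusted p = 0.00327). Jmjd1c was the longest member, at 17822 bases, and control replicate 1 was its highest control. Jmjd1c shares 821 bases with Reep3 on the other strand, which had means of 12.5, 10.7 and 13.3 FPKM in control, OGP and OGE. As for Kdm7a, reads of this overlap cannot be assigned to either gene. Among other called members, Kdm6b, Plod2, Tet3 and Phf2 also overlap a gene on the other strand, with group means of at most 1.03 FPKM. Plod3 (-0.46, limma adjusted p = 0.0122), Tet3 (-0.40, limma adjusted p = 0.0202), Phf2 (-0.38, limma adjusted p = 0.0153) and Kdm4b (-0.32, limma adjusted p = 0.0434), called lower in OGP, had negative log2 fold changes in OGE against control that passed the adjusted p at a smaller fold. P3h4, a non-catalytic partner of collagen hydroxylation, had a log2 fold change of -0.37 (limma adjusted p = 0.0492), and Fto one of -0.23 (limma adjusted p = 0.0404). On the other side, Alkbh1 (0.40, limma adjusted p = 0.0242), Kdm8 (0.38, limma adjusted p = 0.0343) and Kdm6a (0.38, limma adjusted p = 0.0425) had positive log2 fold changes.

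The 6 members listed as induced by hypoxia, a chosen list that need not be complete, had a median log2 fold change of -0.32 in OGP against control. Their values ran from -0.73 to -0.025. Of these, 2 were called lower, Kdm4b and Kdm6b, against 5.74% of all genes. At an unadjusted p under 0.05, for which no share over all genes is given, 4 were lower. By limma 0 were higher, with 0 at an unadjusted p under 0.05 and 0 by voom. In OGE against OGP, Kdm6b and Plod2 were higher, against 3.39% of all genes, and voom, which called 4.66% of all genes higher, also called Kdm3a. Kdm4c, another H3K9 demethylase, stood at 5.85, 4.49 and 4.59 FPKM in control, 3.29, 4.33 and 3.64 FPKM in OGP and 4.07, 4.15 and 3.36 FPKM in OGE, with a log2 fold change of -0.36 in OGP against control (SE 0.13, limma adjusted p = 0.0663). Plod1, the lysyl hydroxylase of the collagen helix, stood at 8.15, 10.0 and 10.6 FPKM in control, 8.82, 7.06 and 7.59 FPKM in OGP and 7.02, 8.17 and 7.61 FPKM in OGE, with a log2 fold change of -0.27 in OGP against control (SE 0.12, limma adjusted p = 0.109). Neither gene was called in any comparison.

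The remaining members were given by their range, except for Alkbh7. Kdm3b (3.88 to 4.70 FPKM) and Kdm4a (15.8 to 20.3 FPKM) were not called, nor was Kdm8 (2.79 to 4.45 FPKM), which is known as an arginyl hydroxylase and was first described as an H3K36 demethylase. Among the JmjC hydroxylases, Jmjd4, a lysyl hydroxylase of the translation termination factor eRF1, ran from 3.27 to 3.89 FPKM, Riox1 from 3.75 to 6.19 FPKM and Jmjd8, which resides in the endoplasmic reticulum, from 1.65 to 2.01 FPKM. Of the AlkB family, the DNA repair enzymes Alkbh2 and Alkbh3 ran from 4.24 to 5.95 FPKM and from 7.54 to 11.1 FPKM, the tRNA methyltransferase Alkbh8 from 3.02 to 3.88 FPKM, Alkbh4 from 2.76 to 4.90 FPKM and Alkbh6 from 3.42 to 5.68 FPKM. The mitochondrial Alkbh7 was at 3.90, 9.16 and 8.57 FPKM in control, 9.42, 8.30 and 10.3 FPKM in OGP and 5.34, 5.68 and 6.01 FPKM in OGE, so control replicate 1 stood below all other libraries and the OGE libraries lay below the OGP libraries. In OGE against OGP its log2 fold change of -0.67 was the most negative of the 43 members, but with a wide error (SE 0.26, limma adjusted p = 0.0980) it was not called. With the same fold, it was called without control replicate 1 and with only the 6 OGE and OGP libraries. Alkbh7 was also the shortest member, at 1029 bases, with 70 reads in the lowest library. P3h1, the main prolyl 3-hydroxylase of fibrillar collagen, ran from 14.3 to 18.9 FPKM, Ogfod2 from 3.88 to 6.05 FPKM and Ogfod3 from 5.27 to 8.11 FPKM. Kdm4d reached at most 0.0640 FPKM, Jmjd7, which shares sequence with a read-through gene, 0.315 FPKM and P3h3 0.0129 FPKM.

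Gene length moved with these differences. In OGP against control the 13 members under 4000 bases had a median log2 fold change of -0.033 (0.09 over 6970 genes of that length), the 15 members from 4000 to 8000 bases one of -0.49 (-0.06 over 4292 genes) and the 15 members of 8000 bases or more one of -0.33 (-0.12 over 1983 genes). In OGE against OGP the same classes had medians of -0.13 (-0.10 over all genes of that length), 0.19 (0.06) and 0.24 (0.16). With the length shift removed, OGP against control had 7 lower members, against 5.53% of all genes. OGE against OGP then had 2 higher members, Kdm6b and Plod2, against 3.24% of all genes, and 1 lower, against 4.17%. The part of the length shift in the results was not tested further.

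**Figure D4:**
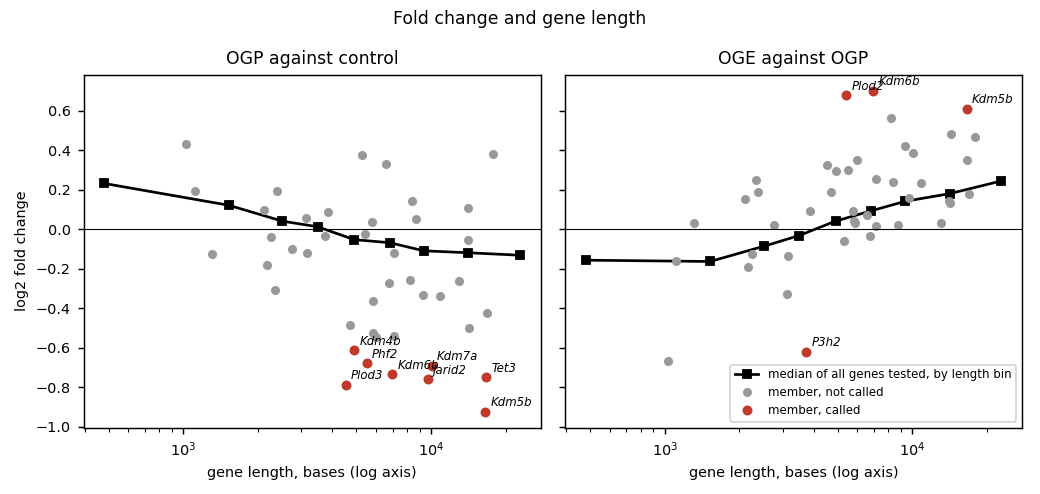
The log2 fold change of each member is plotted against gene length in bases on a log axis, in a panel for OGP against control and another for OGE against OGP, with members called in red and the median of all genes tested in each length bin as black squares. The squares fall with length on the left and rise with length on the right, and the 8 red points on the left lie below the squares.

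Genes that act with the members were counted in lists chosen by function. Among other 2-oxoglutarate oxygenases, 4 of the 13 tested were lower in OGP than in control, against 5.74% of all genes. They included P4ha3 (-1.20, limma adjusted p = 3.71e-05) and P4ha2 (-0.87, limma adjusted p = 0.00146), catalytic subunits of collagen prolyl 4-hydroxylase. Egln1 (-0.85, limma adjusted p = 0.000375), the main hydroxylase that marks HIF for degradation, was another. By limma 0 of the 13 were higher, with 2 at an unadjusted p under 0.05 and 0 by voom, and the list's median log2 fold change was -0.04. Of 20 genes of 2-oxoglutarate, succinate and fumarate metabolism, 2 were lower, against 5.74% of all genes, and the list's median was 0.03. They were Got2 (-0.60, limma adjusted p = 0.000311) and Ogdh (-0.59, limma adjusted p = 0.000551), which use 2-oxoglutarate. A list of 29 genes of histone lysine methylation held methyltransferases, which oppose the demethylases, and the non-catalytic partners Eed and Suz12. Of these 29, Ehmt1 (-0.63, limma adjusted p = 0.000359) and Setd7 (-0.72, limma adjusted p = 0.00139) were lower in OGP than in control, against 5.74% of all genes. Smyd3 was higher in OGE than in control (1.07, limma adjusted p = 9.53e-05), against 5.14% of all genes. The list's median log2 fold change was -0.25 in OGP against control and 0.28 in the comparison of OGE with OGP. These medians had the same sign as those of the members. They also had the sign of the medians of all genes of 8000 bases or more (-0.12 and 0.16), and the part of gene length was not tested. In OGE against OGP limma called 0 of the 29 in either direction, and voom called 1 higher, Smyd3, against 4.66% of all genes. At an unadjusted p under 0.05, 18 were higher and 0 were lower. No share over all genes is given at that limit for any list, so these counts have no background beside them. The FAD-dependent demethylases Kdm1a and Kdm1b, which do not use 2-oxoglutarate, were not called by limma or voom, and 1 of them was lower in OGP against control and 1 was higher in the comparison of OGE with OGP at an unadjusted p under 0.05.

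In the DNA methylation list 1 of 9 genes was higher and 3 were lower in OGP than in control, against 6.38% and 5.74% of all genes. Gadd45a, a stress-induced gene linked to DNA repair and demethylation, had a log2 fold change of 0.76 in OGP against control (limma adjusted p = 0.00129) and 1.25 in OGE against control (limma adjusted p = 6.94e-05). Gadd45b was lower in OGP against control (-0.95, limma adjusted p = 0.000113), and Gadd45g was lower in OGE against OGP (-0.72, limma adjusted p = 0.00241). Of 17 genes that write or read m6A, the catalytic subunit Mettl3 was higher in OGP than in control (0.60, limma adjusted p = 0.00257), and limma called 0 lower, with 5 at an unadjusted p under 0.05 and 0 by voom. Among 9 partners of collagen hydroxylation, the prolyl isomerase Fkbp14 was higher in OGP than in control (0.95, limma adjusted p = 0.000334). Of 13 collagen genes, the substrates of the Plod and P3h enzymes, 1 was higher and 6 were lower in OGP than in control. In OGE against OGP 1 was higher and 4 were lower. Over all genes tested, 6.38% were called higher and 5.74% lower in OGP against control, and 3.39% and 4.73% in OGE against OGP. Col6a1 and Col6a2, chains of type VI collagen, were lower in both comparisons, with log2 fold changes of -0.93 and -0.96 in OGP against control (limma adjusted p = 0.000236 and 0.000177) and -0.76 and -0.94 in OGE against OGP (limma adjusted p = 0.000836 and 0.000195). Col6a3, the third chain, was lower in OGP against control (-1.30, limma adjusted p = 0.000209) and higher in OGE against OGP (0.74, limma adjusted p = 0.00515).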

How the data were processed

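RNA-seq of 9 HT22 libraries was analysed, 3 each of control, OGP and OGE. The authors selected poly-A RNA, aligned paired-end reads with HISAT2 2.0.5 to mm10, counted them per gene with featureCounts and deposited FPKM, of which the tool is not stated. Authors' DESeq2 results were not used. FPKM times gene length gave whole reads (all values within 0.1), 15026700 to 19476806 per library.

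The 13245 genes whose mean reached 0.5 FPKM were fitted on log2(FPKM + 0.5), using limma 3.58.1 (R 4.3.3), a variance trend and a model of 3 groups over the 9 libraries. Benjamini-Hochberg adjustment ran over these genes. A call needed adjusted p not above 0.05 with a fold not below 1.5. The test was tried on simulated data first.

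The members, gene lists and alternatives were chosen with earlier results of these data known. Members called in any comparison and 6 members known to be induced by hypoxia were given by library, as were Alkbh7 and Tet1. The others were given by range, by highest value or by log2 fold change. From each list of other genes, up to 3 called genes with the smallest p were named. Promoters came from the RefSeq table of GRCm38.p6 and were shown only where the start lay within 100 bases of the 5′ end of the gene in the deposited table. Alternatives covered pseudocount, filter, scaling, variance, sample choice, a replicate block and voom on recovered reads. Removal of the gene length trend, and the fit without control replicate 1 and OGE replicate 3, were added after the data had been seen.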

Additional observations from a re-analysis of the deposited data

How the results depend on the processing

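The number of lower members in OGP against control, 8, became 14 (32.6%, against 10.1% of all genes) with TPM scaling and 17 without the fold threshold, which also gave 2 higher members. With TPM scaling the median of all genes was not near 0 but at -0.10 in OGP against control and 0.12 in the comparison of OGE with OGP. In OGE against OGP the 3 higher members became 6 with TPM (against 6.58% of all genes) and 9 without the fold threshold (against 10.6%). They became 5 with voom (against 4.66%) and 1 to 3 when a library was left out. The 1 lower member, P3h2, became 0 with a pseudocount of 1 FPKM, 2 with only the 6 libraries compared (Alkbh7 joining), 2 without control replicate 1 and OGE replicate 3, and 0 to 2 when a library was left out. In OGE against control the 2 lower members became 0 with a pseudocount of 1 FPKM, 10 without the fold threshold and 1 to 3 when a library was left out, and the 2 higher members became 5 without the fold threshold and 1 to 2 when a library was left out. The cause was not tested.

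Values near 0 changed sign. In OGP against control the log2 fold change of Plod2 was 0.034 with the gene length trend removed, 0.13 without control replicate 1 and OGE replicate 3, and -0.17 to 0.13 when a library was left out, and that of P3h2 was -0.14 to 0.065. In OGE against control that of Kdm6b was -0.22 to 0.0735. Over 2021 values of single genes under alternatives, 1945 kept their direction and their side of the threshold, 46 were no longer past it, 22 became so and 8 changed sign. Several alternatives could not change the fold, such as the robust variance, the replicate block and leaving out a library of the group not compared. The genes were mostly ones called or past the adjusted p in these data, so these counts do not measure how robust other genes are. In OGP against control Jarid2, Kdm5b, Kdm6b, Phf2, Plod3 and Tet3 were called under each of 23 alternatives. Same-numbered samples had correlations of -0.18 to 0.32 between their deviations from the group means, so the numbers were not taken as pairs. With the replicate block, 0 members were higher and 8 lower in OGP against control, 3 higher and 1 lower in OGE against OGP, and 2 and 2 when OGE and control were compared. With 3 libraries a group and as few as 67 reads in a library, small changes of the lowest members could not be detected.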
